A study of Mus musculus with 12 samples.

Results

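The 42 mitosis and spindle genes described here encode the kinases, checkpoint proteins, kinetochore and centromere proteins, motors, condensins and cytokinesis factors of cell division. Their rule is a list of symbols, which was drawn up with earlier results of these data known, and all 42 were found among the 49585 genes counted. They were measured in 12 libraries of murine female CD4 T cells, isolated as naïve cells from lymph nodes and activated for 20 h on plates coated with anti-CD3 (5 μg/ml) and anti-CD28 (1 μg/ml). Cells of 3 control cultures (*Rnmt* fl/fl CD4cre -) and 3 *Rnmt* cKO cultures (*Rnmt* fl/fl CD4cre +) each gave a library of total cytoplasmic RNA and one of ribosome-protected fragments (RPF), after 1 min in 0.1 mg/ml cycloheximide, which holds ribosomes on the mRNA. RNMT methylates the guanosine cap of mRNA, and the CD4-driven Cre deletes *Rnmt* during T cell development, so the deletion preceded activation. The labels give no animal or age for the cultures, so the p-values measure the spread between these samples. *Rnmt* itself was at 95.3, 93.9 and 94.1 CPM (TMM-scaled counts relative to library size) in total RNA of the controls and at 29.3, 32.3 and 30.3 CPM in the *Rnmt* cKO, and its RPF fell from 104, 87.7 and 98.7 CPM to 10.5, 10.3 and 9.57 CPM (log2 fold changes of -1.62 and -3.24). The genotype labels and the *Rnmt* values matched in all 12 libraries.

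Naïve T cells are quiescent, and activation takes them through growth and DNA synthesis into rapid division. Genes of mitosis are transcribed late in the cycle, when the B-MYB and FOXM1 activators replace the DREAM repressor at their promoters. Some of their products are then marked for degradation by the anaphase-promoting complex (APC/C) as cells leave mitosis. In a bulk culture the level of these genes therefore depends both on how many cells are in that phase and on how much each of these cells makes. A change in the number of cells in the phase and one in the RNA made per cell cannot be told apart here. CPM is also relative to the other RNA of the library, so a change in total RNA per cell would not be seen. The authors report less mRNA per cell in activated *Rnmt* cKO cells. They state that sequencing then understates decreases and overstates increases of single genes.

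In total RNA 6 of the 42 genes increased in the *Rnmt* cKO (*Plk1*, *Ube2c*, *Incenp*, *Mki67*, *Smc4* and *Kif4*) and 0 decreased, at a threshold of 0.05 on the p of edgeR's quasi-likelihood test after Benjamini-Hochberg adjustment over all 11519 genes tested. Of all genes 26.3% increased and 28.0% decreased, against 14.3% and 0% of the mitosis genes, which thus held fewer calls than the background in both directions in this fit. In RPF 6 of 42 increased (*Kif4*, *Spc25*, *Mad2l1*, *Smc4*, *Bub1b* and *Bub3*) and 0 decreased, against 14.1% and 15.7% of 11428 genes. The share that increased was therefore near the background in RPF in this fit. Without control replicate 2, the control in which most of these genes were highest, it was above the background in both kinds. It was also above with no filter on low counts, where the background gained genes with few reads, as given below. *Smc4* and *Kif4* were called in both kinds of library, 10 genes were called in at least 1 kind and 32 in neither. The 0 decreases also held without adjustment (0 genes under an unadjusted p of 0.05 in either kind) and by DESeq2 and edgeR's exact test, whereas 8 genes in total RNA (19.0%) and 13 in RPF (31.0%) had a positive change at an unadjusted p of 0.05, against 29.6% and 20.5% of all genes tested.

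The changes were small. The log2 fold changes ranged from -0.15 to 0.89 in total RNA and from -0.17 to 0.63 in RPF, and 0 of 42 exceeded 2-fold in either, against 11.2% and 9.81% of all genes tested. Their median was 0.08 in total RNA, beside -0.004 for all genes, and 0.23 in RPF, beside 0.01. In each kind 30 genes had a positive and 12 a negative change. The groups did not overlap for 5 genes in total RNA and 9 in RPF, in each of which every *Rnmt* cKO library was above every control, and for 0 genes with the *Rnmt* cKO below. Groups without overlap, in either direction, were found for 62.3% of all genes tested in total RNA and for 46.5% in RPF. The standard errors were larger than usual, with a median of 0.14 in both kinds against 0.10 for all genes in total RNA and 0.12 in RPF.

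The mitosis genes were high together in some libraries. Among the controls, replicate 2 had the highest CPM of 39 of the 42 genes in total RNA and of 37 in RPF, and 35 genes were highest there in both. Among the *Rnmt* cKO, replicate 1 was the highest for 35 genes in total RNA and 34 in RPF. Over all genes tested each of these 4 libraries was the highest of its group for 26.1 to 36.1% of genes. The median log2 difference of the mitosis genes from the control mean was -0.15, 0.27 and -0.14 in total RNA of control replicates 1, 2 and 3 and 0.25, 0.06 and 0.07 in that of the *Rnmt* cKO. In RPF it was -0.10, 0.25 and -0.14 in the controls and 0.32, 0.22 and 0.11 in the *Rnmt* cKO. Control replicate 2 was thus at the level of the highest *Rnmt* cKO library in total RNA and within their range in RPF. The same library was the highest control for 20 of 28 S phase genes in total RNA and 18 in RPF.

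**Figure D1:**
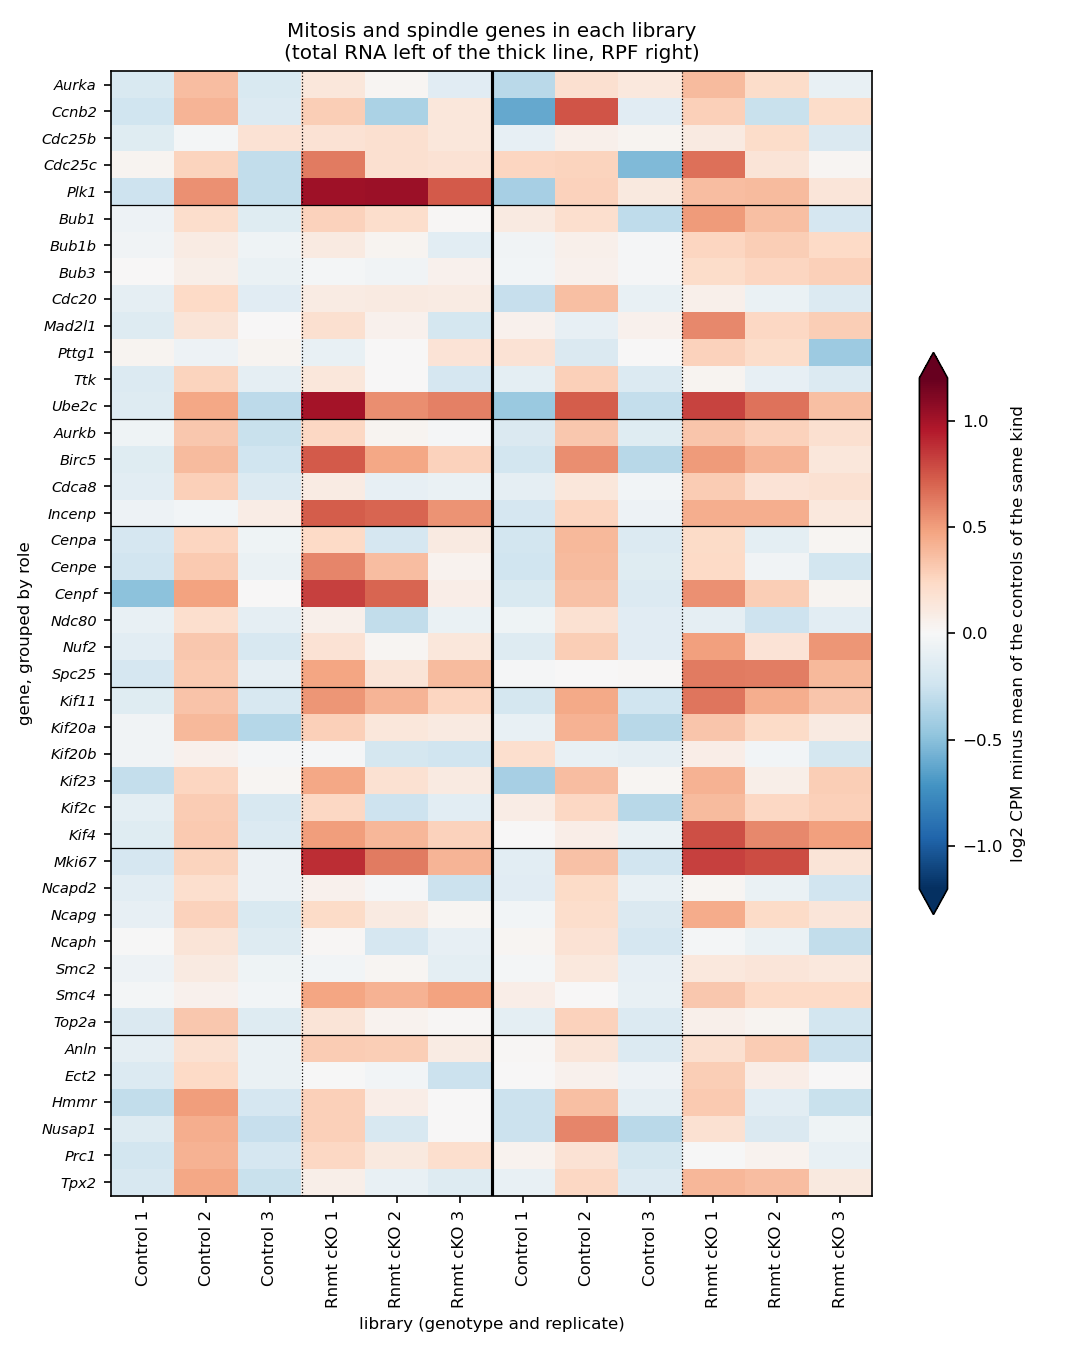
Log2 CPM of the 42 genes (rows, by role) in each of the 12 libraries (columns), as the difference from the mean of the 3 controls of the same kind, red for higher and blue for lower. The column of control replicate 2 is red for nearly all genes in both kinds of library, with a median difference of 0.27 in total RNA and 0.25 in RPF.

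The number of calls moved most with this library, and less with others, as given at the end. Without control replicate 2, 17 of the 42 genes increased in total RNA and 15 in RPF, with 0 decreased in either and a median log2 fold change of 0.25 and 0.28. These shares were above those of all genes in the same fits (21.6% and 11.3%), whereas with all replicates they were below and near them. The library left out was the highest control for most of these genes, so leaving it out raises their fold changes by construction. The shares without it are therefore no test of an excess. Without *Rnmt* cKO replicate 1, 4 increased in total RNA (22.2% of all genes) and 4 in RPF (10.1%). The genes held 0.353%, 0.431% and 0.352% of protein-coding counts in total RNA of the controls and 0.454%, 0.415% and 0.416% in the *Rnmt* cKO. In RPF they held 0.390%, 0.467% and 0.375% in the controls and 0.500%, 0.463% and 0.439% in the *Rnmt* cKO. In both kinds control replicate 2 lay within the range of the *Rnmt* cKO and the other controls below it.

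Transcripts of B cells were highest in *Rnmt* cKO replicates 1 and 2. The summed level of 5 B cell markers (*Cd79a*, *Cd79b*, *Ms4a1*, *Pax5* and *Blk*) was 7.09, 4.81 and 25.3 CPM in total RNA of the controls and 66.0, 84.8 and 15.5 CPM in the *Rnmt* cKO. In RPF it was 8.81, 7.97 and 28.9 CPM in the controls and 91.9, 106 and 14.7 CPM in the *Rnmt* cKO. *Cd79b* and *Ms4a1* (the most abundant of the 5, at up to 51.4 CPM) increased in both kinds, of 3 markers tested in total RNA and 5 in RPF. The part of these transcripts in the mitosis genes' values was not tested. The sums of *Rnmt* cKO replicate 3 lay within the range of the controls in both kinds, although in total RNA *Cd79a*, *Cd79b* and *Blk* were above the highest control there too (0.431, 4.01 and 0.819 CPM, against 0.430, 3.98 and 0.753 CPM). In that library the median difference of the mitosis genes from the control mean was 0.07 in total RNA and 0.11 in RPF. The isolation kit selects naïve CD4 T cells, and the summed level of 8 T cell markers was 3144 to 3432 CPM in total RNA of the controls and 2372 to 2711 CPM in the *Rnmt* cKO. Of these 8, *Cd3d*, *Cd3g*, *Cd5* and *Lck* decreased in total RNA, and *Thy1* decreased as well in RPF. The activation markers *Cd69* and *Il2ra* both increased, by 0.85 and 0.81 on the log2 scale in total RNA. Summed levels of 6 myeloid markers were at most 1.15 CPM. The 3 NK cell markers (*Ncr1*, *Klrb1c* and *Klre1*) were low and too few in reads to be tested, yet their sum did not overlap between the groups, at 0.265, 0.211 and 0.215 CPM in total RNA of the controls and 1.83, 1.39 and 1.08 CPM in the *Rnmt* cKO, and at 0, 0.150 and 0.611 CPM and 1.63, 2.24 and 1.47 CPM in RPF. Their part in the mitosis genes' values was not tested either. The 2 CD8 T cell markers *Cd8a* and *Cd8b1* were both present, at a summed 21.4, 21.3 and 41.6 CPM in total RNA of the controls and 26.4, 21.3 and 9.83 CPM in the *Rnmt* cKO, and neither passed the test.

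Per length of exon, the genes spanned a wide range of levels. *Smc4*, an ATPase core subunit of condensin, was the highest at 130 ± 4.16 RPKM (reads per kilobase of exon at the scale of CPM, SD, n = 3) in total RNA of the controls, and *Top2a*, the topoisomerase that untangles sister chromatids, followed at 49.6 ± 10.1 RPKM (SD, n = 3). *Cdc25c*, a phosphatase that activates CDK1, was the lowest at 0.673 ± 0.135 RPKM, followed by the kinetochore protein gene *Cenpf* at 1.03 ± 0.346 RPKM. The median of the 42 was 6.42 RPKM, against 7.42 RPKM for 9985 protein-coding genes tested in both kinds of library, and 15 of the 42 lay above that median. In RPF, per length of coding sequence, the median was 26.9 RPKM against 25.0 RPKM. The log2 ratio of RPF RPKM to total RPKM in controls had a median of 1.88, against 1.78 for all, with 23 of 42 above. It was lowest for *Mki67* (-0.34) and highest for *Birc5* (4.04), *Ube2c* (4.02) and *Mad2l1* (3.96), whose coding sequences are short. The exons of all annotated transcripts are joined in this length, which lowers the total RPKM of genes with long alternative ends. The depth behind the lowest gene was limited, since *Cdc25c* had 18 to 60 reads per library in RPF and 49 to 86 in total RNA.

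The *Top2a* level was 392, 553 and 398 CPM in total RNA of the controls and 490, 455 and 447 CPM in the *Rnmt* cKO. The groups overlapped because of control replicate 2, and the log2 fold change was 0.05 ± 0.13 (SE; adjusted p = 0.758, edgeR). *Cdc25c* was at 3.34, 3.96 and 2.64 CPM and at 5.08, 3.76 and 3.71 CPM, with overlap, and *Cenpf* at 10.9, 21.6 and 15.4 CPM and at 27.2, 24.9 and 16.3 CPM, also with overlap. For *Cenpf* the libraries of each genotype also lay far apart.

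The promoters share features that the choice of genes did not use. Windows from 250 bases before to 50 after the RefSeq start (GRCm38.p6) were at hand for 36 of the 42 genes (39 windows) and were searched on both strands for the cell cycle homology region (CHR), TTTGAA, which the DREAM and B-MYB complexes bind through LIN54, and for CCAAT, the box bound by NF-Y. The CHR letters were in windows of 27 of 36 genes (75.0%), against 20.2% of 27025 genes with a window, and CCAAT in 26 of 36 (72.2%), against 41.1%. Both were in 1 window for 23 genes (63.9%), against 7.97%. Within 50 bases of the start the CHR letters were found for 24 of 36 genes (66.7%), against 5.72% of all. The stretches around the match are given for the 7 called genes that have a window with a match and for *Cdc20*, *Ccnb2* and *Ttk*, which were not called, so that both kinds can be read side by side. Capitals mark TTTGAA or its reverse complement TTCAAA, and CCAAT. Each runs 5′ to 3′ along the gene's strand.
Plk1: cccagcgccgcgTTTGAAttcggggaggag
Ube2c: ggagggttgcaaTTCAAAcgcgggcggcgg
Mki67: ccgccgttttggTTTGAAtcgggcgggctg
Kif4: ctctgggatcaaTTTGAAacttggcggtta
Spc25: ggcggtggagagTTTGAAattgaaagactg
Bub1b: agagacgttaaaTTTGAAactt
Bub3: gagccgttggcgTTCAAAatcagCCAATga
Cdc20: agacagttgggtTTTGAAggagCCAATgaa
Ccnb2: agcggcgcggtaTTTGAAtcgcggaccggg
Ttk: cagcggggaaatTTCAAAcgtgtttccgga

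On GRCm38 these lie at chr7:122159453-122159482 (plus strand, *Plk1*), chr2:164769888-164769917 (plus, *Ube2c*), chr7:135716460-135716489 (minus, *Mki67*), chrX:100626072-100626101 (plus, *Kif4*), chr2:69206172-69206201 (minus, *Spc25*), chr2:118598239-118598260 (plus, *Bub1b*, where the window ends), chr7:131560315-131560344 (plus, *Bub3*), chr4:118437344-118437373 (minus, *Cdc20*), chr9:70421533-70421562 (minus, *Ccnb2*) and chr9:83834684-83834713 (plus, *Ttk*). The first base of the match was at 31 bases from the start in *Plk1*, 20 in *Kif4*, 25 in *Spc25*, 41 in *Bub1b*, 5 in *Ccnb2* and 8 in *Ttk*, and upstream of it at -29 in *Ube2c*, -98 in *Mki67*, -43 in *Bub3* and -18 in *Cdc20*. *Bub3* has a second window, from whose start the match is at -167. Of the genes that were not called *Kif2c* and *Ncapd2* have their single CHR match at -103 and -123. *Mki67* has a further match at -116, and *Mad2l1* has none in its window. In *Cdca8* a match of each motif overlapped. A match is a description of the letters and not a measured binding site.

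The mitotic kinases and their activators set the entry into mitosis. *Plk1* (chr7:122159439-122169873, plus strand) encodes polo-like kinase 1, which drives centrosome maturation and spindle formation. It was at 3.28, 5.81 and 3.17 CPM in total RNA of the controls and at 8.06, 8.13 and 6.60 CPM in the *Rnmt* cKO. Every *Rnmt* cKO library was above every control, and the increase of 0.89 ± 0.24 (log2, SE; adjusted p = 0.014, edgeR) was the largest of the 42 genes. In RPF the values were 15.6, 25.1 and 22.5 CPM and 26.8, 27.0 and 22.8 CPM, and the groups overlapped (log2 fold change 0.30 ± 0.18, adjusted p = 0.238, edgeR). Without control replicate 1 the total RNA call was lost. *Plk1* had 59 to 158 reads per library in total RNA. The other genes of this role did not pass the test. In total RNA the log2 fold changes of *Cdc25b* and *Cdc25c*, phosphatases that activate CDK1, were 0.16 and 0.32, that of *Aurka*, the centrosomal Aurora kinase, was -0.02 and that of *Ccnb2*, a B-type cyclin, was 0.01. In RPF they were 0.08, 0.29, 0.19 and -0.01, with standard errors of 0.13 to 0.33.

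Of the 8 spindle checkpoint and anaphase genes 1 increased in total RNA (12.5%, against 26.3% of all genes) and 3 in RPF (37.5%, against 14.1%). *Bub3* (chr7:131560222-131571895, plus strand), *Bub1b* (chr2:118598211-118641591, plus strand) and *Mad2l1* (chr6:66535390-66547220, plus strand) encode subunits of the mitotic checkpoint complex, which holds back the APC/C until chromosomes are attached. *Bub3* was at 232, 246 and 234 CPM in RPF of the controls and at 276, 284 and 289 CPM in the *Rnmt* cKO, an increase of 0.25 ± 0.05 (adjusted p = 0.0102, edgeR). *Bub1b* was at 65.6, 70.5 and 67.1 CPM and at 81.1, 83.0 and 79.8 CPM, an increase of 0.27 ± 0.07 (adjusted p = 0.0181, edgeR). *Mad2l1* was at 66.8, 60.3 and 66.9 CPM and at 96.4, 76.8 and 79.3 CPM, an increase of 0.38 ± 0.10 (adjusted p = 0.0232, edgeR). For all 3 the RPF groups did not overlap, and control replicate 2 was not far from the other controls. In total RNA their log2 fold changes were -0.003, 0.003 and 0.01, with standard errors of 0.06, 0.08 and 0.12, and the groups overlapped. *Bub3*, for example, was at 149, 155 and 140 CPM in the controls and at 146, 144 and 153 CPM in the *Rnmt* cKO. The *Bub1b* call was lost without control replicate 1 or 3, without *Rnmt* cKO replicate 2 and with no filter on low counts. The *Mad2l1* call was lost without control replicate 1 or 2 or *Rnmt* cKO replicate 1, and that of *Bub3* with no filter on low counts alone.

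*Ube2c* (chr2:164769898-164778822, plus strand) encodes the ubiquitin-conjugating enzyme that serves the APC/C. It was at 3.81, 5.92 and 3.39 CPM in total RNA of the controls and at 8.60, 6.28 and 6.51 CPM in the *Rnmt* cKO. The groups did not overlap, control replicate 2 lying just below the lowest *Rnmt* cKO library, and the increase was 0.69 ± 0.23 (log2, SE; adjusted p = 0.0325, edgeR). In RPF it was at 10.6, 24.2 and 11.9 CPM and at 25.6, 23.0 and 18.7 CPM. Control replicate 2 there was as high as the *Rnmt* cKO, and the log2 fold change of 0.56 ± 0.30 did not pass the test (adjusted p = 0.186, edgeR). The total RNA call was lost without control replicate 1 or 3, without *Rnmt* cKO replicate 1 and with the replicate block. The checkpoint kinases *Bub1* and *Ttk*, the APC/C activator *Cdc20* and the securin gene *Pttg1* had log2 fold changes of 0.16, -0.03, 0.09 and 0.03 in total RNA and of 0.26, -0.08, -0.07 and 0.07 in RPF, and did not pass in either.

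The chromosomal passenger complex corrects attachments of chromosomes to the spindle and has 4 subunits, all among the 42 genes. *Incenp* (chr19:9872296-9899551, minus strand), its scaffold, was at 23.2, 23.7 and 25.7 CPM in total RNA of the controls and at 40.0, 39.2 and 35.1 CPM in the *Rnmt* cKO. The controls were close together, with replicate 2 no higher than replicate 3, and the increase was 0.65 ± 0.08 (log2, SE; adjusted p = 0.000378, edgeR). It was called in all 15 settings of the total RNA comparison. In RPF *Incenp* was at 73.7, 101 and 81.4 CPM and at 115, 115 and 92.8 CPM, which overlapped (0.34 ± 0.13, adjusted p = 0.083, edgeR). The RPF change of *Incenp* was called in 5 of 14 alternatives. The other subunits did not pass. *Birc5* (survivin) was at 19.5, 28.2 and 18.3 CPM in total RNA of the controls and at 36.0, 29.8 and 26.1 CPM in the *Rnmt* cKO, and control replicate 2 alone made the groups overlap (0.47 ± 0.18, adjusted p = 0.057, edgeR). *Birc5* was called in 6 of 14 alternatives there. Its RPF change was 0.32 ± 0.22 (adjusted p = 0.310, edgeR). The kinase *Aurkb* and the borealin gene *Cdca8* had log2 fold changes of 0.07 and -0.04 in total RNA and 0.26 and 0.22 in RPF.

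**Figure D2:**
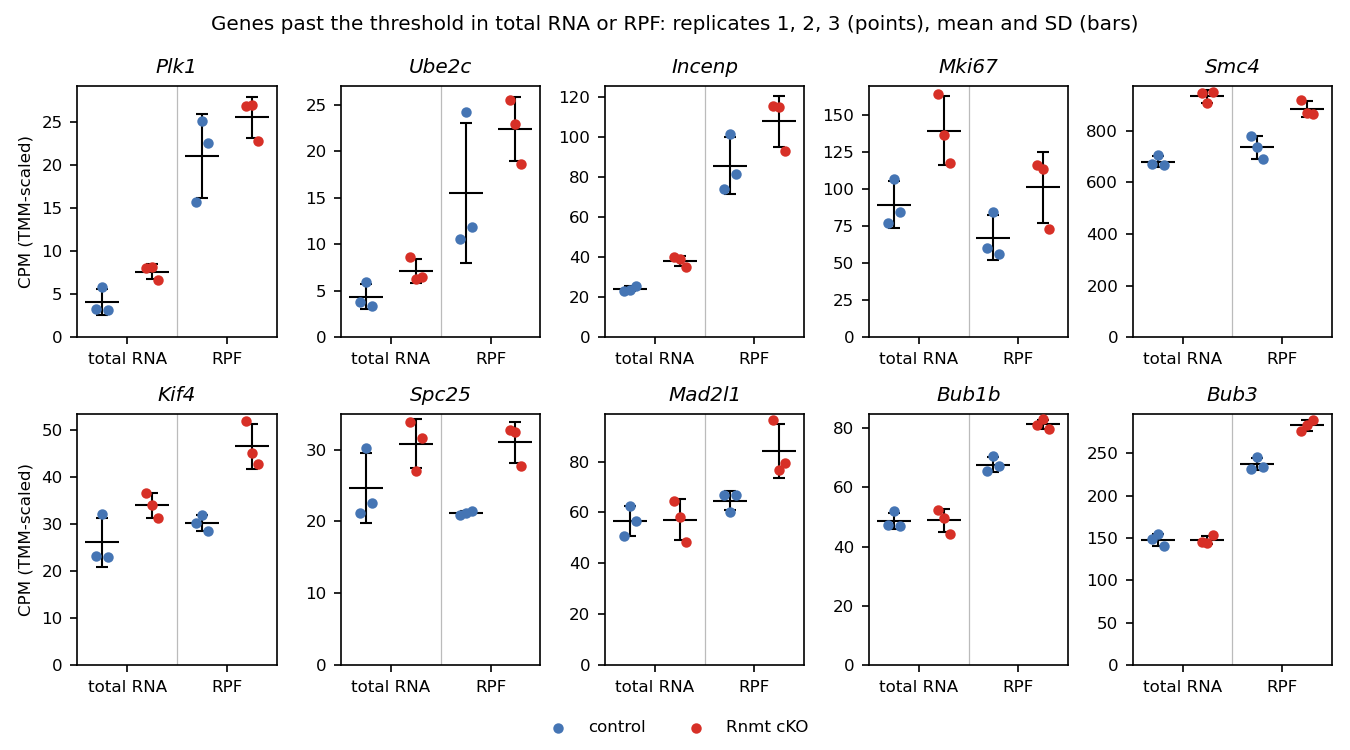
CPM of the 10 genes past the threshold in total RNA or RPF, with replicates 1, 2 and 3 as points from left to right (blue control, red *Rnmt* cKO) and the mean and SD of each group as bars, on axes that start at 0. *Plk1*, *Ube2c*, *Incenp* and *Mki67* separate in total RNA, and *Kif4*, *Spc25*, *Mad2l1*, *Bub1b* and *Bub3* in RPF, while *Smc4* separates in both.

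At the kinetochore, *Spc25* (chr2:69193895-69206194, minus strand) encodes a subunit of the NDC80 complex, which binds microtubules. It was at 20.9, 21.2 and 21.4 CPM in RPF of the controls and at 32.8, 32.5 and 27.7 CPM in the *Rnmt* cKO. The controls lay within 1 CPM of each other, and the increase was 0.56 ± 0.10 (log2, SE; adjusted p = 0.00521, edgeR). It was called in all 15 settings of the RPF comparison. In total RNA *Spc25* was at 21.2, 30.2 and 22.5 CPM and at 33.8, 27.1 and 31.7 CPM, where control replicate 2 was within the *Rnmt* cKO range (0.32 ± 0.15, adjusted p = 0.0945, edgeR). *Ndc80* and *Nuf2*, of the same complex, had log2 fold changes of -0.11 and 0.09 in total RNA and -0.17 and 0.39 in RPF. The complex thus had 1 called gene among the 3 listed here, in RPF alone, where 14.1% of all genes increased (26.3% in total RNA). *Ndc80* had the lowest RPF log2 fold change of the 42. The centromeric histone gene *Cenpa*, the kinetochore motor gene *Cenpe* and *Cenpf* were at 0.05, 0.33 and 0.51 in total RNA and 0.04, -0.01 and 0.31 in RPF, and did not pass.

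Among the kinesins, *Kif4* (chrX:100625737-100727214, plus strand) encodes a chromosome-bound motor of the central spindle. It was at 30.3, 31.9 and 28.6 CPM in RPF of the controls and at 51.9, 45.1 and 42.7 CPM in the *Rnmt* cKO. This was the largest RPF increase of the 42 (0.63 ± 0.10 on the log2 scale, adjusted p = 0.00291, edgeR), and it was called in all 15 settings. In total RNA *Kif4* was at 23.3, 32.2 and 23.0 CPM and at 36.6, 34.0 and 31.3 CPM. Control replicate 2 was above the lowest *Rnmt* cKO library, and the increase of 0.38 ± 0.14 passed narrowly (adjusted p = 0.0483, edgeR) and was lost in 5 of 15 settings, which were the replicate block and the fits without control replicate 1 or 3 or *Rnmt* cKO replicate 1 or 2. *Kif11*, the motor that pushes spindle poles apart, was at 92.0, 129 and 89.3 CPM in total RNA of the controls and at 147, 135 and 122 CPM in the *Rnmt* cKO, again with control replicate 2 inside the *Rnmt* cKO range (0.38 ± 0.14, adjusted p = 0.0522, edgeR), and it was called in 9 of 14 alternatives. In RPF *Kif11* was at 107, 169 and 105 CPM in the controls and at 194, 168 and 157 CPM in the *Rnmt* cKO, with control replicate 2 again inside the *Rnmt* cKO range (0.45 ± 0.18, adjusted p = 0.0922, edgeR), and was called in 2 of 14 alternatives. *Kif20a*, *Kif20b* and *Kif23*, motors of the central spindle and midbody, and *Kif2c*, which removes tubulin from microtubule ends, had log2 fold changes of 0.15, -0.15, 0.24 and -0.05 in total RNA and of 0.20, -0.05, 0.24 and 0.29 in RPF. *Kif20b* had the lowest total RNA log2 fold change of the 42.

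Of the genes of chromosome structure, *Smc4* (chr3:69004738-69034623, plus strand) was at 669, 704 and 665 CPM in total RNA of the controls and at 944, 905 and 950 CPM in the *Rnmt* cKO. The groups were far apart compared with their spread, and the increase of 0.46 ± 0.06 (log2, SE; adjusted p = 0.000382, edgeR) was called in all 15 settings. In RPF *Smc4* was at 777, 736 and 690 CPM and at 919, 867 and 864 CPM, without overlap (0.27 ± 0.07, adjusted p = 0.0204, edgeR). This RPF call was lost without control replicate 2 or 3 or *Rnmt* cKO replicate 1. Its condensin partners did not pass. *Smc2*, the other ATPase of the complex, had log2 fold changes of -0.04 in total RNA and 0.13 in RPF, and the non-SMC subunit genes *Ncapd2*, *Ncapg* and *Ncaph* had -0.08, 0.11 and -0.10 in total RNA and -0.10, 0.28 and -0.13 in RPF. *Smc4* was therefore the only 1 of these 5 condensin genes that was called, beside 26.3% of all genes increased in total RNA and 14.1% in RPF. *Top2a*, described above for its level, had log2 fold changes of 0.05 in total RNA and -0.05 in RPF. *Mki67* (chr7:135689784-135716361, minus strand) encodes the chromosome surface protein Ki-67. It was at 77.1, 107 and 84.7 CPM in total RNA of the controls and at 164, 137 and 118 CPM in the *Rnmt* cKO. The groups did not overlap, and the increase of 0.64 ± 0.15 (adjusted p = 0.0077, edgeR) was called in all 15 settings. In RPF it was at 60.4, 84.7 and 56.5 CPM and at 117, 114 and 73.4 CPM, a similar log2 fold change (0.61 ± 0.20) that just missed the threshold (adjusted p = 0.0503, edgeR), with *Rnmt* cKO replicate 3 below control replicate 2. It was called in 9 of 14 alternatives, DESeq2 and edgeR's exact test among them.

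The 6 genes of spindle assembly and cytokinesis held no call. Of all genes 26.3% increased and 28.0% decreased in total RNA, and 14.1% and 15.7% in RPF. Log2 fold changes in total RNA were -0.10 for *Tpx2*, which activates Aurora A on the spindle, 0.01 for *Nusap1* and 0.08 for *Hmmr*, both microtubule-associated, 0.16 for the microtubule bundler *Prc1*, 0.23 for the cleavage furrow gene *Anln* and -0.11 for *Ect2*, the exchange factor that activates RhoA. In RPF they were 0.30, -0.06, -0.01, -0.02, 0.12 and 0.13, with standard errors of 0.09 to 0.23. The total RNA standard errors of *Nusap1* and *Hmmr* were 0.20 and 0.21, so an increase of the size called for *Bub3* in RPF (0.25) was not detectable for them.

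**Figure D3:**
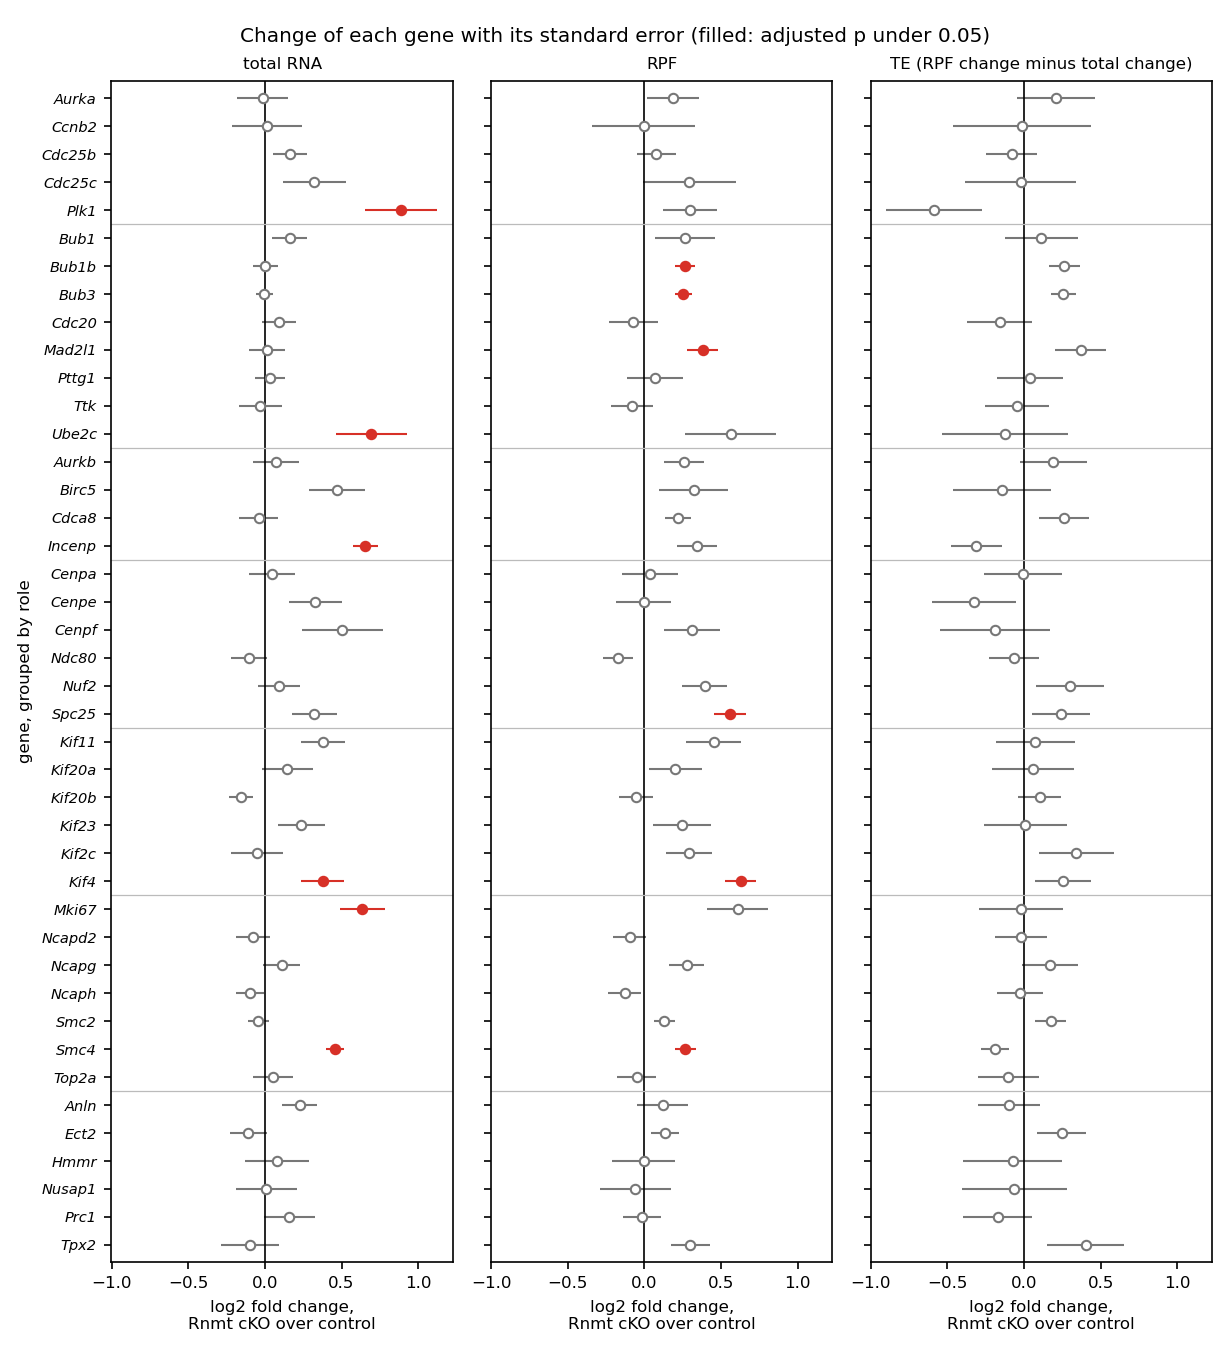
Log2 fold change of *Rnmt* cKO over control (points) with its standard error (lines) for the 42 genes by role, in total RNA, RPF and TE; filled red points have an adjusted p under 0.05. All 12 filled points lie to the right of 0, 6 in total RNA and 6 in RPF, and TE has none.

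Translational efficiency (TE) was compared as the interaction of genotype and kind of library, that is, the change in RPF over the change in total RNA. Of the 42 genes 0 were called in either direction by edgeR's quasi-likelihood test over 10668 genes, of which 3.24% increased and 6.57% decreased, and DESeq2 called 0 as well. Without adjustment 3 genes (7.14%) had a positive change at a p of 0.05 and 0 a negative one, against 11.9% and 12.7% of all genes. These were *Bub3* (0.26 ± 0.08), *Bub1b* (0.26 ± 0.10) and *Mad2l1* (0.37 ± 0.17), with adjusted p of 0.0693, 0.135 and 0.191 by edgeR. The increase of these 3 in RPF was therefore not shown to differ from their change in total RNA once all genes were considered. At the other end were *Plk1* (-0.59 ± 0.31), *Cenpe* (-0.33) and *Incenp* (-0.31 ± 0.16), with adjusted p of 0.274, 0.504 and 0.268. The median TE change of the 42 was -0.01, against 0.04 for all genes, and the median standard error was 0.22 against 0.16. These TE values and tests did not pair the 2 libraries of a culture. With a term for the culture (the replicate block) 0 of the 42 genes were called as well, where 426 of 10668 genes increased and 777 decreased.

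Genes of the same processes outside the 42 were taken from lists of 126 genes. In total RNA 25 of these increased (19.8%) and 22 decreased (17.5%), and in RPF 14 increased (11.1%) and 9 decreased (7.14%). Taken over the 126 genes these shares were below those of all genes (26.3% and 28.0% in total RNA, 14.1% and 15.7% in RPF), but not in every list. Of 17 genes of mitotic entry and G2/M transcription 7 increased (41.2%) and 2 decreased (11.8%) in total RNA, and 5 (29.4%) and 1 (5.88%) in RPF. The APC/C inhibitor gene *Fbxo5* (0.90 in total RNA and 0.42 in RPF) and the transcription factor gene *Foxm1* (0.65 and 0.33, the latter not past the test) had the largest total RNA increases, and *Mybl2*, which encodes B-MYB, and *Cdk1* the largest in RPF (0.60 and 0.43). *Pkmyt1*, a kinase that inhibits CDK1, and *Mastl*, the Greatwall kinase, decreased in total RNA (-0.61 and -0.42). *Arpp19*, a phosphatase inhibitor that is a Greatwall substrate, increased in total RNA (0.39), decreased in RPF (-0.25) and had a TE change of -0.64 that passed the test (adjusted p = 0.000176, edgeR).

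Of 17 APC/C and separase genes 5 increased (29.4%) and 3 decreased (17.6%) in total RNA, while RPF had 4 that increased (23.5%). The APC/C subunit genes *Anapc15* (0.55 in total RNA and 0.76 in RPF) and *Anapc11* (0.47 and 0.93) and *Anapc10* (0.35 and 0.81) increased in both kinds, and *Anapc5* and *Cdc26* decreased in total RNA (-0.39 and -0.32). Of 14 cohesin genes 5 (35.7%) increased (*Smc3*, 0.70, and the sororin gene *Cdca5*, 0.60, the furthest) and 1 (*Stag2*, -0.28) decreased in total RNA, and 1 (*Rad21*, 0.26) increased and 1 (*Smc1a*, -0.30) decreased in RPF. *Smc3*, a cohesin ATPase, was at 166, 165 and 162 CPM in total RNA of the controls and at 276, 273 and 252 CPM in the *Rnmt* cKO (0.70), while its RPF was at 307, 288 and 270 CPM and at 248, 260 and 245 CPM (-0.20). Its TE decreased (-0.90, adjusted p = 4.5e-05, edgeR), as did that of *Smc1a* (-0.38). *Smc4* of condensin, an ATPase of the same family, had a TE change of -0.19 ± 0.09 that did not pass (adjusted p = 0.211, edgeR).

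Of 32 further kinetochore and centromere genes 2 (6.25%) increased (*Zw10*, 0.39, and *Spdl1*, 0.23) and 6 (18.8%) decreased in total RNA (*Zwilch*, -0.70, and *Kntc1*, -0.62, the furthest), and in RPF *Zwilch* decreased (-0.44). *Zw10*, *Zwilch* and *Kntc1* encode the 3 subunits of the RZZ complex at the kinetochore, and their total RNA moved in opposite directions. Of 24 spindle motor and microtubule genes 3 (12.5%) increased in total RNA (*Kif2a*, 0.81, and *Kif14*, 0.71, the furthest) and 6 decreased (*Haus4*, -0.76, and *Numa1*, -0.69), and in RPF 3 increased (*Ckap2*, 0.38, and *Haus6*, 0.37, the furthest) and 3 decreased (*Numa1*, -0.58, and *Haus4*, -0.36). Of 13 centrosome genes 1 (*Tubg1*, 0.56) increased and 3 decreased (*Cenpj*, -0.46, and *Cep192*, -0.25, the furthest) in total RNA, and in RPF 1 (*Tubgcp3*, 0.37) increased and 2 (*Cdk5rap2*, -0.49, and *Cep192*, -0.33) decreased. Of 6 cytokinesis genes *Pdcd6ip* (0.77) and *Chmp4b* (0.23) increased in total RNA. Of the 3 subunits particular to condensin II *Ncaph2* decreased in total RNA (-0.88) and RPF (-0.62). TE decreased for *Kif2a* (-0.80), *Tubg1* (-0.68), *Pdcd6ip* (-0.68) and *Zw10* (-0.50) and increased for *Haus1* (0.35), so that of the 126 genes 1 increased and 7 decreased in TE.

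For comparison, of 28 genes of S phase and DNA synthesis 2 increased (7.14%) and 6 decreased (21.4%) in total RNA, against 26.3% and 28.0% of all genes. In RPF 1 increased (3.57%) and 10 decreased (35.7%), against 14.1% and 15.7%. Their median log2 fold change was -0.06 in total RNA and -0.18 in RPF, where that of the mitosis genes was 0.08 and 0.23. *Rrm2*, a subunit of ribonucleotide reductase, and *Chaf1a*, a chromatin assembly factor, increased in total RNA (0.59 and 0.31), and *Prim1* (-0.54) and *Gins1* (-0.43) decreased. *Mcm6*, of the replicative helicase, had the largest decrease in RPF (-0.45), followed by *Gins2* (-0.35), and *Cdc45* was the 1 that increased there (0.21). The difference between the lists was not tested.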

How the data were processed

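Per the authors' methods, read 2 of each pair was used because read 1 had failed. STAR 2.5.2b, with the GENCODE vM12 annotation, placed the reads on mm10 after Cutadapt had trimmed adapters and Bowtie had taken out ribosomal RNA and tRNA. The authors deposited STAR's counts of uniquely aligned reads per gene and strand, with no normalization. The reverse strand counts were used, since the deposited table of normalized signal values followed them in 1 ratio per library (relative tolerance 1e-06) for 100% of the 10102 to 10126 genes of the table with a count above 0. Its fold change, p-value and TE columns were not used. Reads that named no gene (unmapped, multimapping, unassigned or ambiguous) were 41.1 to 47.0% of all reads for total RNA and 53.9 to 70.4% for RPF. They were left out. Total RNA libraries had 15079703 to 22629563 reads on genes (47204 to 70099 on the mitosis genes), RPF libraries 4123271 to 10661356 (16137 to 43678).

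A gene entered a comparison when 3 or more of its 6 libraries exceeded 1 CPM, and all 42 did. The genotypes were compared in each kind by edgeR 4.0.16 (R 4.3.3, limma 3.58.1) with TMM factors and quasi-likelihood F tests, and in TE by an interaction term over 12 libraries, where the authors used RiboDiff. Benjamini-Hochberg adjustment was over all genes. CPM values are TMM-scaled. Lengths and positions came from GENCODE vM21 (GRCm38, the build of mm10), promoter windows from RefSeq. Alternatives included DESeq2 1.42.0. Total RNA and RPF libraries of the same genotype and number deviated together (r = 0.113 to 0.378 in 6 pairs), so the number marks a culture in TE. Opposite genotypes' numbers did not pair. No 2 libraries of a group were alike within sampling noise.

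The genes, roles and lists were chosen with earlier results of these data known. Every gene is named with its log2 fold change by role. Values in each library are given for the 3 largest changes each way past the threshold in each comparison, for the 2 highest and 2 lowest genes by RPKM in total RNA of controls and for *Rnmt*, and of each other list the 2 furthest called genes each way are named. Library values of *Mki67*, *Smc4*, *Kif4* (total RNA), *Bub1b*, *Bub3*, *Kif11*, *Birc5* and *Smc3* were added after their values were seen. The lists are given without 2 genes that are not reported here.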

Additional observations from a re-analysis of the deposited data

Results flagged for a closer look

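Reads on the strand opposite to the mitosis genes, which entered only the alternative with unstranded counts, were a larger share of their reads in RPF of the *Rnmt* cKO (0.535%, 0.605% and 0.622%, mean 0.588%) than in that of the controls (0.389%, 0.428% and 0.497%), without overlap between the groups. Over all protein-coding genes the RPF shares were 1.23%, 1.40% and 1.40% in the controls and 1.55%, 1.39% and 2.20% in the *Rnmt* cKO, with overlap. In total RNA the shares of the mitosis genes were 0.791%, 0.688% and 0.811% in the controls and 0.823%, 0.759% and 0.786% in the *Rnmt* cKO, with overlap, beside 2.09 to 2.20% and 1.97 to 2.13% over all protein-coding genes. *Nusap1* held 60.8% of these opposite-strand reads in RPF of the controls and 57.1% in that of the *Rnmt* cKO, and *Kif20a* 54.7% and 52.5% in total RNA. Their source was not tested.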

How the results depend on the processing

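No mitosis gene decreased in total RNA or RPF, and none was called in TE, under any of the alternatives run. The number that increased in total RNA was 6 of 42, and moved to 11 with no filter on low counts, where 3527 of 29236 genes increased. It ranged from 3 to 17 when each replicate was left out. In RPF it was 6, and 9 with no filter, where 1867 of 26748 genes increased, with a range of 4 to 15 when each replicate was left out. With no filter the share of the mitosis genes was thus above that of all genes in both kinds. The background then gained genes with few reads (from 11519 to 29236 genes in total RNA, from 11428 to 26748 in RPF). All 42 mitosis genes had passed the filter, so these shares do not compare like genes. Leaving out control replicate 1 gave the lowest total RNA count (2303 of 11394 genes increased in that fit) and control replicate 2 the highest of both kinds. Leaving out *Rnmt* cKO replicate 3 gave 10 in total RNA, where 3145 of 11281 genes increased. Where a replicate is left out, 1 group has 2 libraries. The other alternatives (no TMM, DESeq2, edgeR's exact test, a minimum of 10 counts in every library, unstranded counts, protein-coding genes alone) gave 6 to 8 in both kinds. Of the genes called, *Incenp*, *Mki67* and *Smc4* in total RNA and *Kif4* and *Spc25* in RPF were called in all 15 settings. Of the genes not called, *Kif11* in total RNA and *Mki67* in RPF were called in 9 of 14 alternatives each, and the others that gained a call in 1 to 6. The median log2 fold change stayed within 0.01 and 0.25 in total RNA and 0.13 and 0.28 in RPF, and within -0.02 and 0.04 in TE. With the replicate block the number that increased was 5 in total RNA and 7 in RPF, where 2455 of 11519 and 1596 of 11428 genes increased. The same-numbered libraries of the genotypes did not deviate together (r = -0.524 to -0.222 in total RNA and -0.0659 to 0.145 in RPF), so the numbers there are names alone. In TE, where they mark a culture, the replicate block gave 0 calls as well. With all counts on genes as the denominator the mean share of the mitosis genes was 0.270% and 0.318% in total RNA and 0.377% and 0.429% in RPF (control and *Rnmt* cKO), in place of 0.379%, 0.428%, 0.411% and 0.467% of protein-coding counts. The library with the lowest depth was RPF of *Rnmt* cKO replicate 3, with 4123271 reads on genes. Without it 8 mitosis genes increased in RPF, where 1414 of 11207 genes increased. The median standard error of the mitosis genes was 0.14 in both kinds.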
